A study of Mus musculus with 12 samples.

Results

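Gene expression in the mouse maxillary prominence was compared between embryonic day 14.5 (E14.5) and embryonic day 11.5 (E11.5) over all genes. The comparison uses 6 of the 12 bulk RNA-seq libraries of the study, chosen by their stage labels: the 3 libraries of E14.5 and the 3 of E11.5. All embryos were wild-type C57BL/6 mice, with no treatment labelled for either group. E14.5 has protocol entries of its own in the same words as those of the earlier stages. The E14.5 samples are numbered apart from those of the other stages. Whether they were collected or sequenced apart is not labelled, and such a difference could not be told apart from stage. The study's other libraries came from E10.5 and E12.5. They entered the same fit and its estimate of the spread, on which the calls rest. E12.5 is also used below to place a change in time. Tissue was pooled from 7 littermates, which the protocol leaves undefined as a number for each library or for the whole stage. The libraries are described as biological replicates from independent RNA samples, but separate litters are not named, so every p-value here reflects library-to-library spread, which may in part be technical. The title of E14.5 replicate 1 names a pair of parts, and its counts were used as 1 library.

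The maxillary prominence is the paired outgrowth of facial mesenchyme, derived mostly from cranial neural crest, with a mesodermal vascular and muscle-forming contribution and a covering of surface ectoderm. It forms the upper jaw, the cheek and the secondary palate. Early prominences grow by proliferation under signals from the ectoderm (Fgf, Wnt, Bmp and hedgehog ligands), which set up fields of homeobox factors in the mesenchyme. Later, mesenchyme condenses into membranous bone, cartilage and connective tissue, myoblasts fuse into fibres, the ectoderm stratifies into epidermis with whisker follicles and tooth germs, and the palatal shelves grow out and fuse.

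Depth was similar in both stages, with 30435535 to 32100104 counts in genes per E11.5 library and 28294837 to 33941430 per E14.5 library. Levels below are counts scaled per 1000000 (CPM) on library sizes scaled by the TMM method, whose factors were 0.916 to 0.925 at E11.5 and 1.106 to 1.143 at E14.5. The labelled tissue was checked against its markers: jaw mesenchyme factors such as Prrx1, Alx4, Msx1 and Barx1 were abundant in every library, and the 6 Hox genes tested, which mark pharyngeal tissue behind the jaw arch, summed to 0.748 to 3.07 CPM at E11.5 and 5.41 to 11.9 CPM at E14.5. Of these Hox genes 4 were called higher at E14.5 (66.7%, beside 37.2% of all tested genes), with a median log2 difference of 5.28. Hepatocyte markers summed to at most 0.552 CPM at E11.5 and 2.88 CPM at E14.5. The 13 tested markers of brain, eye and olfactory epithelium summed to 56.0 to 81.6 CPM at E11.5 and 59.7 to 65.1 CPM at E14.5. Of these markers 2 were higher and 3 lower. E14.5 replicate 1 stood apart in having no count for 4 Y-linked genes. On library sizes not scaled by TMM, these genes summed to 128 to 169 CPM at E11.5 and to 144 and 210 CPM in the other E14.5 libraries. Without that replicate 6354 genes were higher and 5607 lower. Log2 levels correlated at 0.989 to 0.992 between libraries of a stage and at 0.907 to 0.913 between stages. Because tissue was sequenced in bulk, more cells of a type and more RNA per cell cannot be told apart.

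Most genes differed between the stages. Of 18365 genes tested, 6829 were higher at E14.5 (37.2%) and 6012 were lower (32.7%), together 69.9%, at an adjusted p under 0.05 in edgeR's quasi-likelihood test. The rises were larger than the falls: 4475 genes were at least 2-fold higher (24.4%) against 1805 at least 2-fold lower (9.83%), and 669 against 41 were at least 16-fold different. The gap was smaller among genes with 5 CPM or more in the higher stage, with 1834 at least 2-fold higher and 1269 at least 2-fold lower. Each E11.5 library had counts in 22633 to 23192 genes and each E14.5 library in 26097 to 26914. The libraries of the 2 stages did not overlap for 14456 genes (78.7%). Noncoding genes of the annotation were more often higher than lower, with 929 of 2053 higher and 282 lower and a median log2 difference of 0.78, beside a median of 0.03 over 15300 protein-coding genes. Among the 5524 genes that did not pass, 2652 had a 95% interval within 1.5-fold of no change. Alignments outside annotated genes also differed between the stages without overlap, at 2.16% to 2.42% of listed alignments at E11.5 and 5.78% to 6.21% at E14.5, and their part in the count of noncoding genes was not tested.

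**Figure D1:**
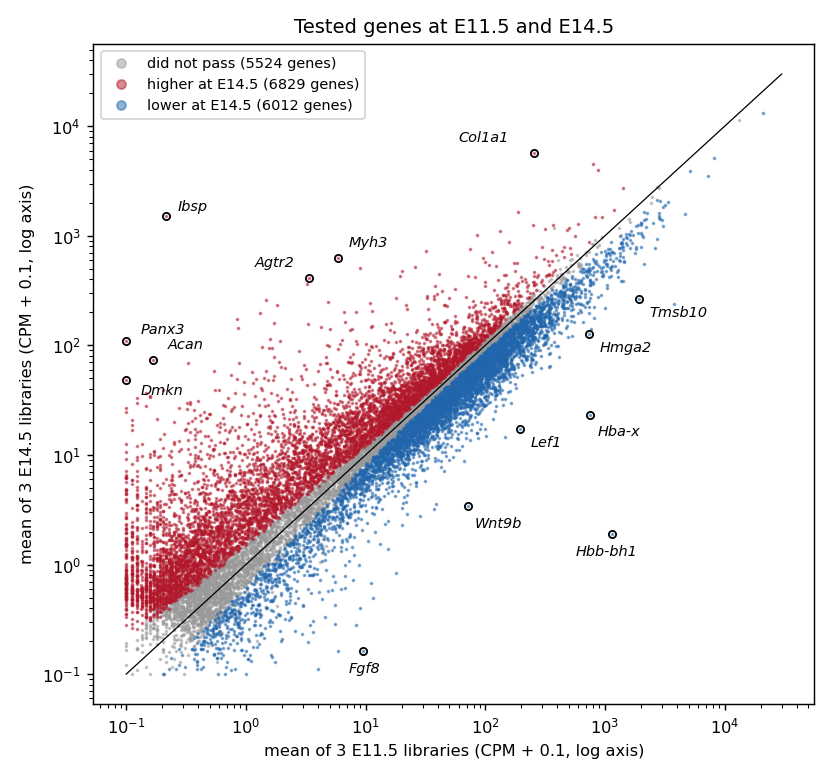
Mean level of each tested gene in the 3 E11.5 libraries (horizontal) and the 3 E14.5 libraries (vertical), in CPM plus 0.1 on log axes, with called genes in colour and the line of equal level in black. The largest rises start at or near 0 at E11.5 (Ibsp, Panx3, Dmkn, Acan). Most falls stay within 16-fold of the line, with Hbb-bh1, Fgf8, Hba-x and Wnt9b among those beyond 16-fold.

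Gene lists were read against those background shares, as the number of tested members called in each direction. Lists and members were chosen with earlier results of these data known, so a share above the background is a description and not a test. Lists of bone, cartilage, muscle, matrix, vessels and immune cells were mostly higher at E14.5, the mitosis, replication and Lin28 lists were wholly or almost wholly lower, and lists of neurons, red cells, palate regulators and Wnt, Fgf and hedgehog genes were divided. The median log2 difference over all tested genes was 0.08.

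**Figure D2:**
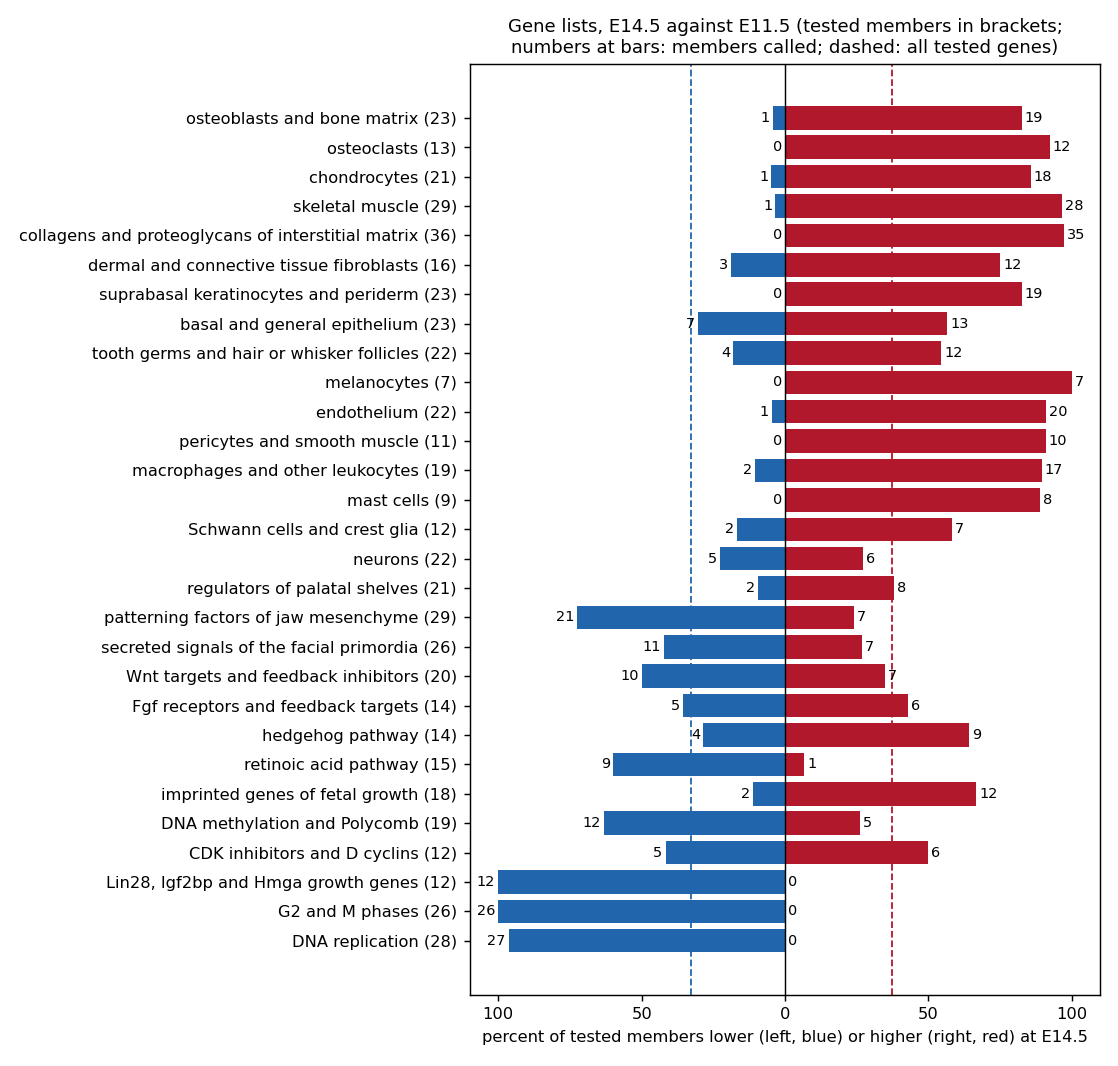
Share of tested members higher (red, right) and lower (blue, left) at E14.5 in each gene list, with the number of called members at each bar, the number tested in brackets and dashed lines at the shares over all tested genes, 37.2% higher and 32.7% lower. Bone, cartilage, muscle, matrix and vessel lists extend to the right, and replication, mitosis and Lin28-related lists to the left.

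Bone genes rose steeply. Ibsp (chr5:104299171-104311469, mm10, plus strand), which encodes the acidic matrix protein bone sialoprotein, stood at 0.178, 0.069 and 0.102 CPM in the E11.5 libraries and at 1604, 1706 and 1209 CPM in the E14.5 libraries. The stages were far apart, the E11.5 values resting on 10 counts in all, for a log2 difference of 13.62 (SE 0.37, adjusted p = 1.39e-10). At E12.5 its mean was still 0.318 CPM. Of 23 tested genes of osteoblasts and bone matrix, 19 were higher, 1 was lower and 3 did not pass, with a median log2 difference of 3.99. The summed level of the list was 1540 to 1742 CPM at E11.5 and 12862 to 16109 CPM at E14.5.

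The osteoblast factor Sp7, which acts downstream of Runx2, rose from 4.88, 7.32 and 5.31 CPM to 94.4, 101 and 82.4 CPM, a log2 difference of 3.99 (SE 0.21). Genes that handle phosphate and pyrophosphate in mineralising tissue rose as well. Alpl, the tissue-nonspecific alkaline phosphatase, stood at 6.73, 7.94 and 5.10 CPM and then at 174, 173 and 147 CPM, a log2 difference of 4.64. Smpd3, a sphingomyelinase needed for mineralisation, rose 190-fold, Phex, an endopeptidase of phosphate balance, by 4.93 on the log2 scale and Enpp1, which makes pyrophosphate, by 3.62. Of the matrix genes beside Ibsp on chromosome 5, Dmp1 had 1 count in all E11.5 libraries and 27.5, 12.3 and 22.6 CPM at E14.5, a ratio of 1819 with a counting interval of 326 to 71874. Mepe had no E11.5 count and was at least 17.7-fold higher (a bound that sets the empty stage to 3 counts in total), and Spp1, or osteopontin, rose by 6.05 (log2). The collagenase Mmp13 was also without a count at E11.5 and at least 205-fold higher. Bglap and Bglap2, the osteocalcin genes of mature osteoblasts, were too low to test, at 37 and 21 counts over the E14.5 libraries.

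Panx3 (chr9:37659902-37669235, minus strand), a channel protein of osteoblasts and chondrocytes, had no count at E11.5 and a mean of 109 ± 20.5 CPM (SD, n = 3) at E14.5, at least 3148-fold higher. It was named by the size of its rise and is on no list. The bone list's exceptions included regulators. Runx2, which commits cells to the osteoblast lineage, stood at 70.7, 80.4 and 64.2 CPM and then at 86.7, 89.2 and 88.4 CPM, a log2 difference of 0.30 that did not pass (adjusted p = 0.259) and did so at 0.29 when the 6 compared libraries were fitted alone. Pth1r, the parathyroid hormone receptor, did not pass either, at 0.10. Msx2, a homeobox factor of skull and jaw, was the one member that fell, by 2.68 on the log2 scale.

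Osteoclast genes, which belong to the bone-resorbing cells of the macrophage lineage, rose as well, in 12 of 13 tested members with a median log2 difference of 2.65. Mmp9, the gelatinase that osteoclasts use at the front of resorption, went from 0.641, 0.380 and 0.306 CPM to 59.2, 60.0 and 54.7 CPM, 130.5-fold higher. The fusion protein gene Dcstamp and the proton pump subunit gene Atp6v0d2 had no count at E11.5 and were at least 58.0-fold and 161-fold higher. The ligand Tnfsf11, which drives osteoclast formation, rose by 4.87 (log2), and its decoy receptor Tnfrsf11b by 0.99. Ctsk, the collagen-cleaving cathepsin, rose by 2.65 and is also expressed in fibroblasts. Itgb3, an integrin chain of osteoclasts that platelets also carry, did not pass, at 18.2, 18.2 and 18.8 CPM against 17.6, 16.7 and 16.8 CPM (adjusted p = 0.371).

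Cartilage genes rose in 18 of 21 tested members, with a median log2 difference of 3.73. Acan, the large aggregating proteoglycan of cartilage, was at 0.036, 0.104 and 0.068 CPM and then at 83.1, 99.8 and 36.8 CPM, 997-fold higher. The third E14.5 library was the lowest of its stage, and this was also so for Col2a1, which read 586, 588 and 258 CPM after 193, 136 and 198 CPM. The summed list ranged from 395 to 500 CPM at E11.5 and from 1343 to 2138 CPM at E14.5. Matn1, a cartilage matrilin, had no E11.5 count and was at least 769-fold higher. Col11a2, a fibril collagen chain, rose by 7.09 and Cnmd, or chondromodulin, by 6.89 on the log2 scale. Ihh, the hedgehog ligand of maturing chondrocytes, rose by 5.96, while Col10a1, the collagen of hypertrophic chondrocytes, had 21 counts over the E14.5 libraries and was not tested.

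The Sox trio that directs chondrocyte fate did not move together. Sox6 rose by 1.26 and Sox5 fell by 1.19 on the log2 scale. Sox9, the leading factor of the trio, was at 35.6, 29.1 and 35.0 CPM and then at 27.7, 27.2 and 29.4 CPM, with overlapping stages and a difference of -0.24 that did not pass (adjusted p = 0.163), or -0.25 and called with the 6 compared libraries alone. At E12.5 its mean was 76.1 CPM. Ucma, a secreted protein of growth plate cartilage, also did not pass.

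Skeletal muscle genes were higher in 28 of 29 tested members, with a median log2 difference of 5.70 and a sum of 130 to 162 CPM at E11.5 and 2747 to 3434 CPM at E14.5. Of the muscle-forming factors, Myod1 was at 2.35, 2.04 and 2.58 CPM against 38.9, 38.7 and 34.6 CPM, and Myog, the factor of terminal differentiation, at 4.52, 6.28 and 3.13 CPM against 108, 105 and 92.3 CPM. Mymk and Mymx, the membrane proteins that fuse myoblasts, rose by 6.19 and 4.54 (log2). Myh3, the embryonic myosin heavy chain, stood at 6.19, 6.90 and 4.25 CPM and then at 679, 688 and 527 CPM, 109-fold higher with an SE of 0.32 on the log2 scale. Ttn, or titin, went from 2.14, 3.49 and 3.84 CPM to 384, 403 and 293 CPM. Acta1, skeletal actin, rose 235-fold, and Ckm, the muscle creatine kinase, had no count at E11.5 and was at least 125-fold higher. Pax3, a factor of muscle progenitors and neural crest, was the exception and fell by 1.48 (SE 0.34, adjusted p = 0.00144), from 71.4 to 78.4 CPM in the E11.5 libraries to 22.0 to 33.1 CPM in those of E14.5. With the outside-gene share as covariate its difference was 0.0027. Pax7, its relative in muscle progenitors, rose by 1.38, a call that was lost without E11.5 replicate 1 (1.13) or 3 (1.31) or without E14.5 replicate 1 (1.31) or 2 (1.30).

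Extracellular matrix genes were higher almost throughout. Of 36 tested collagens, proteoglycans and elastic fibre genes, 35 were higher, with a median log2 difference of 2.54, and Fbln1 did not pass. Col1a1, a chain of the main fibrillar collagen of bone and dermis, stood at 263, 282 and 226 CPM and then at 6771, 4956 and 5368 CPM, 22.2-fold higher, and it had the largest gain in CPM of all called genes. Col1a2 and Col3a1 followed with mean gains of 3762 and 3067 CPM. All 44 collagen genes together held 0.412% to 0.446% of gene counts at E11.5 and 2.40% to 3.08% at E14.5. The small leucine-rich proteoglycans Dcn and Aspn rose by 4.58 and 6.62, and Bgn by 3.19 (log2). Eln, the elastin precursor, went from 25.2, 29.8 and 22.1 CPM to 531, 466 and 572 CPM, and Lox, which cross-links both fibre types, rose by 4.46. Serpinh1, the collagen chaperone of the endoplasmic reticulum, rose by 0.52. Agtr2, the type 2 angiotensin receptor of fetal connective tissue, rose from 2.53, 4.94 and 2.28 CPM to 445, 345 and 441 CPM, 126-fold.

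Connective tissue and tendon markers beside the matrix were higher in 12 of 16 tested members and lower in 3. Tnmd, a tendon membrane protein, rose by 4.27 and the tendon factors Scx and Mkx by 1.19 and 1.71 (log2). Pparg and Fabp4, which mark adipocyte precursors, rose by 5.63 and 6.32 from levels below 0.1 CPM. The members that fell were Twist2, Crabp1 and Lef1.

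**Figure D3:**
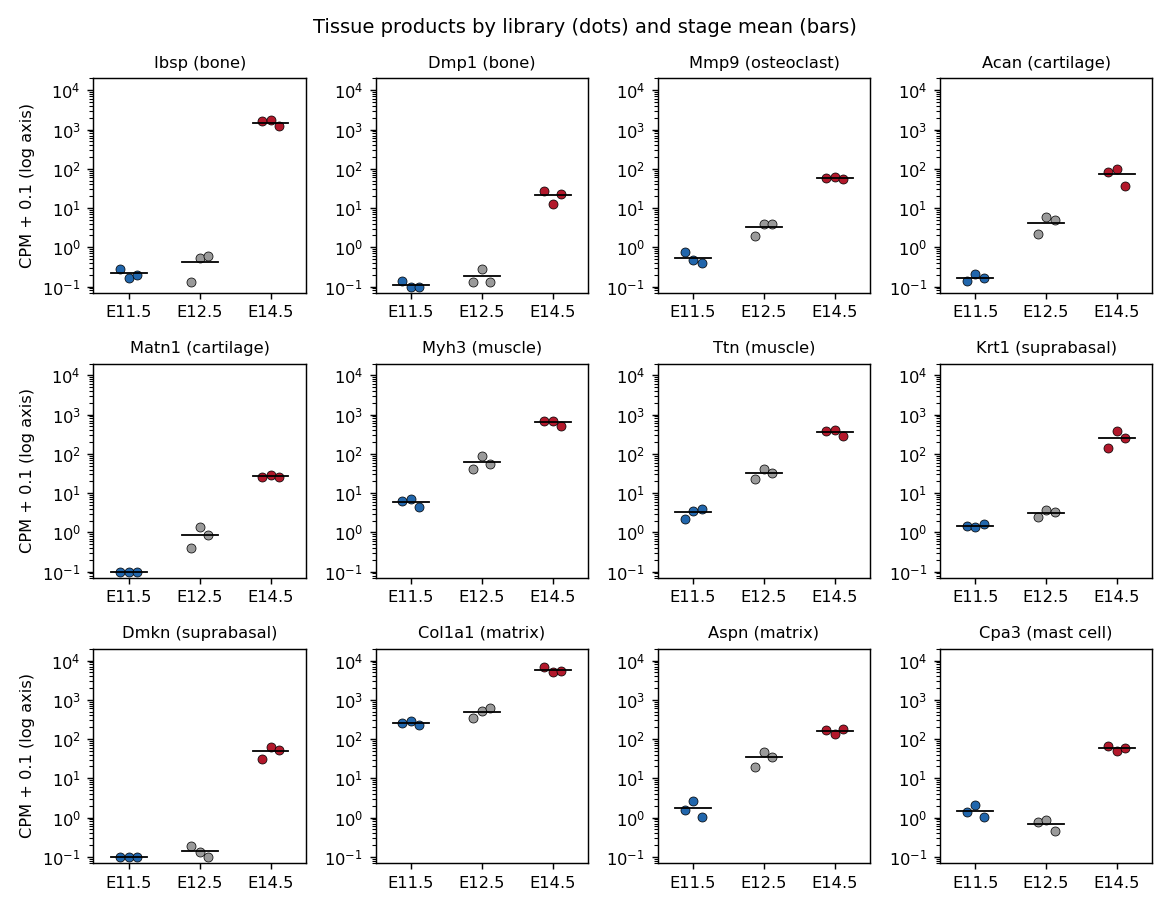
Level of 12 genes in each library of E11.5 (blue), E12.5 (grey) and E14.5 (red), in CPM plus 0.1 on a log axis, with a bar at the stage mean. The E14.5 dots lie above all E11.5 dots for every gene shown, and Ibsp, Dmp1, Dmkn and Cpa3 were still near their E11.5 level at E12.5.

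Keratinocyte differentiation genes were mostly higher at E14.5. Of 23 tested suprabasal and periderm genes, 19 were higher, none lower and 4 did not pass, with a median log2 difference of 5.10. Krt1, the keratin that replaces Krt5 above the basal layer, was at 1.35, 1.24 and 1.56 CPM and then at 143, 381 and 253 CPM, 186-fold higher. Krt10, its partner, read 6.48, 8.35 and 6.94 CPM and then 87.4, 186 and 141 CPM. Dmkn and Krtdap, secreted proteins of the first suprabasal cells that lie on chromosome 7, had no count at E11.5 and were at least 1387-fold and 715-fold higher. Krt4 and Krt13, the keratins of oral lining epithelium, had 2 and 3 counts over the E11.5 libraries, for ratios of 1296 (counting interval 358 to 10706) and 366 (125 to 1776). Among E14.5 libraries, replicate 1 was the lowest for Krt1, Krt10, Dmkn, Krt4 and Krt13, and the summed list ranged from 187 to 211 CPM at E11.5 and from 608 to 1229 CPM at E14.5.

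Genes of the whole epithelium changed much less. In the basal and general epithelium list 13 of 23 were higher, 7 lower and 3 not called, with a median log2 difference of 0.47. The adhesion gene Cdh1 was at 104, 86.8 and 111 CPM and then at 90.9, 115 and 111 CPM, and the splicing factor gene Esrp1 had a difference of 0.04 (adjusted p = 0.835), so neither of these pan-epithelial genes was called. Within the list the keratins exchanged. The simple epithelium pair Krt8 and Krt18 fell by 1.19 and 1.18, and the stratified keratins Krt5, Krt14 and Krt15 rose by 2.10, 0.96 and 2.86 on the log2 scale. Cldn6, a tight junction claudin of embryonic epithelium, fell by 2.09, and the basement membrane laminin genes Lama3 and Lamb3 rose by 2.34 and 2.42. The epithelial master factor Trp63 fell by 0.51 (adjusted p = 0.000681), from 133, 122 and 132 CPM to 81.2, 102 and 87.6 CPM.

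Genes of whisker follicles and tooth germs were divided, with 12 of 22 tested members higher, 4 lower and 6 not called. At least 2-fold different were 8 of the higher members and all 4 lower ones. The summed list was lower at E14.5, at 456 to 481 CPM at E11.5 and 268 to 348 CPM at E14.5. The inner root sheath keratins rose from nothing or nearly so. Krt25 was at 0 in all E11.5 libraries and at 3.83, 10.2 and 17.7 CPM at E14.5, at least 305-fold higher, and Krt71 rose from at most 0.142 CPM to 3.83, 11.9 and 26.3 CPM. Both were lowest in replicate 1 and highest in replicate 3, a spread of several fold within the stage. Ambn, the enamel matrix gene ameloblastin, rose by 4.18 (log2), whereas Amelx, amelogenin, had no E14.5 count. Among placode signals, the ectodysplasin ligand Eda rose by 1.38 and its receptor Edar by 0.72 (0.50 and not called without E14.5 replicate 2, and likewise without E11.5 replicate 2 or 3, at 0.60 and 0.61).

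Genes of vessels and immune cells were also higher at E14.5. Endothelial genes were higher in 20 of 22 tested members, with a median log2 difference of 1.35 and a sum of 330 to 396 CPM at E11.5 and 807 to 905 CPM at E14.5. The Vegf receptor gene Kdr rose from 36.8, 26.7 and 35.7 CPM to 105, 89.5 and 95.4 CPM, and Pecam1, the adhesion molecule of endothelium, by 1.38 (log2). The lymphatic receptor gene Lyve1, also found on macrophages, rose by 5.89 and the lymphatic factor Prox1 by 1.96. Fli1 fell by 0.80. Esm1 did not pass at 0.73 but did at 0.89 without E14.5 replicate 3 and at 0.72 with the 6 compared libraries alone. Pericyte and smooth muscle genes were higher in 10 of 11, among them Acta2, smooth muscle actin, at 10.3 to 11.2 CPM against 260, 249 and 224 CPM. Acta2 and Des are also expressed in young skeletal muscle.

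Macrophage and other leukocyte genes were higher in 17 of 19 tested members, at a median log2 difference of 1.87. Mrc1, the mannose receptor of resident macrophages, rose from 8.90, 9.29 and 9.35 CPM to 79.2, 66.3 and 68.0 CPM, and Csf1r, the receptor that maintains macrophages, by 2.25. The platelet chemokine gene Pf4 fell by 1.34 and Coro1a by 0.31, which was not called without E11.5 replicate 2 (-0.33) or 3 (-0.28) or E14.5 replicate 1 (-0.33) or 2 (-0.24) and was 0.088 with the outside-gene share as covariate. Mast cell genes rose in 8 of 9. The granule proteases were nearly absent before: Cpa3, carboxypeptidase A3, was at 1.28, 1.93 and 0.918 CPM and then at 66.9, 48.6 and 60.5 CPM, and Tpsb2, a tryptase, had no count and was at least 359-fold higher. Cma1, chymase, had 2 counts over the E11.5 libraries, for a ratio of 1431 (counting interval 396 to 11818). Gata2, a factor shared with other lineages, did not pass. It was called at -0.37 with the 6 compared libraries alone, and also with the outside-gene share as covariate.

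Embryonic globins fell, and genes of definitive red cells were divided. The embryonic beta-like chain Hbb-bh1 (chr7:103841637-103843164, minus strand) was at 1070, 1209 and 1147 CPM at E11.5 and at 2.63, 1.70 and 1.03 CPM at E14.5, 646-fold lower, and this was the steepest fall among all genes named by size. The other embryonic chains Hbb-y and Hba-x fell by 3.98 and 5.03 (log2). The definitive red cell list gave 2 higher, 3 lower and 3 not called of 8, with a median of -0.43. Its summed level was nevertheless higher, at 649 to 805 CPM at E11.5 and 1227 to 2588 CPM at E14.5. With the outside-gene share as covariate the list gave 0 higher and 3 lower. The members that rose were the adult chains Hbb-bs, by 4.48, and Hbb-bt, by 1.79 (0.93 and 1.51 with that covariate, neither called), while Hba-a1 did not pass at 0.58, and did so at 0.78 and 0.74 without E14.5 replicate 2 or 3. All E14.5 globins were highest in replicate 1 (932, 425 and 461 CPM for Hba-a1). Globin genes are near-identical copies, so the split of reads among them is uncertain. The red cell membrane gene Slc4a1 fell by 2.62, and all globins together held 0.526% to 0.669% of gene counts at E11.5 and 0.157% to 0.328% at E14.5.

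Nerve and pigment markers were mixed. Neuronal genes gave 6 higher, 5 lower and 11 not called of 22, and several varied widely within a stage. Prph, the peripheral neuron filament, read 0.819, 3.38 and 1.56 CPM at E11.5 and 11.2, 1.73 and 34.7 CPM at E14.5, with the second E14.5 library below an E11.5 library. Its difference of 3.05 was 1.74 and not called without E14.5 replicate 3, and 2.68 and not called without E11.5 replicate 1. The summed list was 305 to 478 CPM and then 242 to 520 CPM, with replicate 2 the highest at E11.5 and replicate 3 the highest at E14.5. Schwann cell genes were higher in 7 of 12. Pmp22, a myelin protein also made by mesenchyme, rose from 16.8, 21.3 and 15.3 CPM to 112, 105 and 106 CPM. The early glial factor Sox10 did not pass at -0.33, and did so at -0.34 with the 6 compared libraries alone. Melanocyte genes were higher in 7 of 7 tested members from a sum of at most 4.25 CPM, with the pigment enzyme Dct up by 4.92 and the amyloid fibre gene Pmel by 4.56 on the log2 scale.

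Regulators of the palatal shelves were divided. Of 21 tested 11 did not pass, beside 5524 of all 18365 tested genes, 8 were higher and 2 lower, with a median log2 difference of 0.16. Osr2, a zinc finger factor of the palate, was at 74.5, 80.7 and 54.0 CPM and then at 61.1, 55.9 and 61.0 CPM, with overlapping stages. Foxf2, a forkhead factor of oral mesenchyme, was at 18.3, 10.6 and 13.3 CPM and then at 8.36, 7.52 and 11.7 CPM, with a mean of 77.2 CPM at E12.5. The mean of Shh, the hedgehog ligand of oral epithelium, was 15.3 CPM at E12.5, beside 4.38, 2.52 and 3.03 CPM at E11.5 and 2.30, 4.13 and 3.40 CPM at E14.5. Sim2 and Foxe1, which are needed for palate growth, had the same order, with E12.5 means of 85.3 and 36.5 CPM. Foxf2 passed at -1.80 with the outside-gene share as covariate and at -0.61 with the 6 compared libraries alone. Without 1 library some of these genes passed: Foxf2 at -0.78 or -0.83 (without E11.5 replicate 2 or E14.5 replicate 3), Osr2 at -0.40 (without E11.5 replicate 3) and Sim2 at 0.69 (without E11.5 replicate 1). For Sox9, Foxf2, Shh, Sim2 and Foxe1 the E12.5 mean lay above every E11.5 and E14.5 library. The palate members that changed most were Meox2, up by 2.75, the growth factor gene Fgf7, up by 4.76, Tgfb3, whose ligand acts at the fusing medial edge, up by 2.04, and Msx1, down by 2.04. Tbx22, a factor mutated in cleft palate, was down by 1.44.

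**Figure D4:**
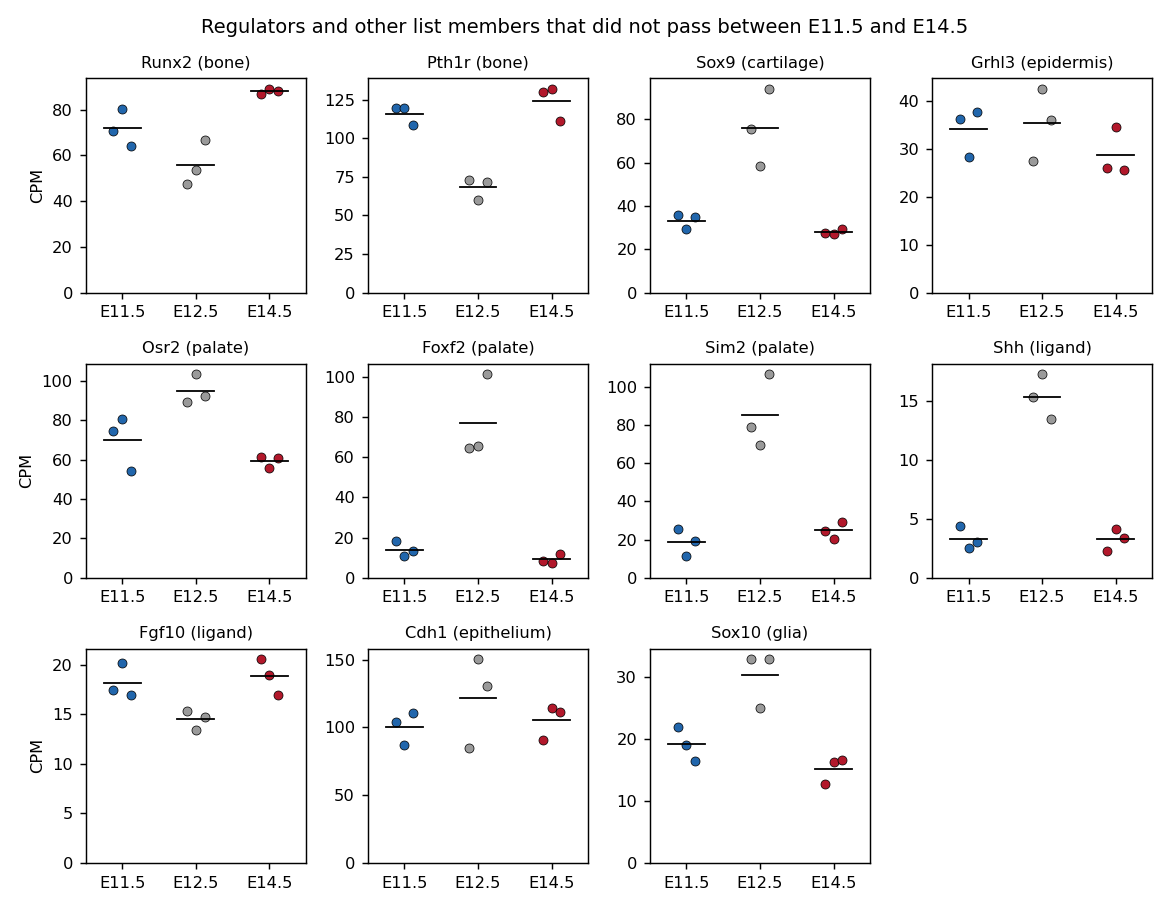
Level in CPM of 11 listed genes that did not pass between E11.5 and E14.5, in each library of E11.5 (blue), E12.5 (grey) and E14.5 (red), with a bar at the stage mean and axes from 0. The E12.5 means of Sox9, Foxf2, Sim2 and Shh lie above every E11.5 and E14.5 dot, and Runx2 lies between 64.2 and 89.2 CPM in the compared libraries.

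Patterning factors of jaw mesenchyme were lower as a group, in 21 of 29 tested members, with 7 higher, 1 not called and a median log2 difference of -0.93. Their sum was 3249 to 3378 CPM at E11.5 and 1552 to 1608 CPM at E14.5. Twist1, a factor that keeps cranial mesenchyme undifferentiated, was at 424, 412 and 343 CPM and then at 99.6, 100 and 96.2 CPM, and Msx1 was at 338, 341 and 352 CPM and then at 66.5, 102 and 83.0 CPM. Alx1, a homeobox factor of frontonasal and eye-side mesenchyme, fell by 2.25, Lhx8 and Lhx6, LIM factors of the oral side of the jaw, by 1.69 and 1.37, and Prrx1, which marks skeletal progenitors, by 0.87 on the log2 scale. Pitx1, a factor of the jaw's oral side and the hindlimb, rose by 1.36 and Hand2, a factor of the lower jaw arch, by 3.73, from at most 0.605 CPM. Nr2f2 did not pass, at -0.13, and did so at -0.25 without E11.5 replicate 2.

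The Dlx homeobox genes sit in neighbouring pairs, and the pairs differed in direction. Dlx2, on chromosome 2, fell from 44.9, 33.2 and 40.3 CPM to 16.6, 18.1 and 18.6 CPM, and its neighbour Dlx1 by 0.26. Dlx5 and Dlx6, the chromosome 6 pair, rose by 0.81 and 1.36 (log2). Dlx3 and Dlx4, the chromosome 11 pair with roles in epithelium and bone, rose by 0.47 and 1.83. The calls of Dlx1 and Dlx3 were lost when some single libraries were left out, while the differences kept their direction. Dlx1 was not called without E14.5 replicate 2 or 3 (both -0.23). Dlx3 was not called without E11.5 replicate 1 (0.47) or 2 (0.38) or E14.5 replicate 2 (0.41).

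Among the ligands of the early prominence the steepest falls were in Wnt9b and Fgf8. Wnt9b, a ligand of facial ectoderm that is needed for lip fusion, stood at 76.4, 63.2 and 73.5 CPM and then at 2.60, 4.61 and 2.66 CPM, a log2 difference of -4.44 (SE 0.28, adjusted p = 3.52e-08). At E12.5 it was already down, at 2.43 CPM. Fgf8, the ligand that maintains early jaw mesenchyme, was at 10.6, 4.90 and 12.7 CPM and then at 0.092, 0.096 and 0 CPM, 150-fold lower. Of 26 secreted signals 11 were lower, 7 higher and 8 not called. Bmp4 fell by 1.27, Wnt3 by 1.65 and Wnt7b by 1.45, and the late ligands Wnt16 and Fgf18, both expressed around bone, rose by 4.75 and 2.96 (log2).

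Of 20 Wnt response genes 10 were lower and 7 higher. Lef1, a transcription factor that is itself a Wnt target, was at 193, 218 and 174 CPM and then at 18.3, 18.3 and 15.3 CPM, 11.3-fold lower. The feedback gene Axin2 was at 160, 165 and 157 CPM and then at 42.1, 36.9 and 36.4 CPM. Nkd1 and Dkk1 fell by 1.71 and 1.47. The secreted inhibitors Wif1 and Sfrp2 rose by 2.35 and 1.93 and the receptor gene Lgr5 by 1.07. Of 14 Fgf receptors and feedback genes 6 were higher, led by Fgfr4 and Fgfr3 at 4.54 and 2.78, and 5 were lower, among them Etv4 at -0.85 and Dusp6 at -0.66. With the outside-gene share as covariate 2 Fgf genes were higher and none lower.

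Hedgehog pathway genes were higher in 9 of 14 and lower in 4, although Shh itself did not pass, and 3 were higher and 1 lower with the outside-gene share as covariate. Hhip, a secreted inhibitor and target of the pathway, went from 2.42, 1.86 and 2.48 CPM to 24.8, 21.2 and 27.8 CPM, and the receptor and target Ptch1 rose by 0.86 and the target Gli1 by 0.79 (-0.20 with the outside-gene share as covariate). The transducer genes Gli3, Gli2, Sufu and Smo were the 4 lower members, and they fell by 0.87, 0.38, 0.54 and 0.24 on the log2 scale. The call of Smo was lost without any 1 of 5 libraries, all but E11.5 replicate 2, at -0.21 to -0.26.

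Retinoic acid genes were lower in 9 of 15, higher in 1 and not called in 5, with a median log2 difference of -0.997. The intracellular carriers Crabp2 and Crabp1 stood at 327, 356 and 356 CPM and at 375, 340 and 414 CPM, and then at 61.5, 69.3 and 65.0 CPM and at 119, 103 and 101 CPM. Stra6, the receptor that takes up retinol, fell by 1.78, and the receptor Rarb, itself a target, by 1.22, though 34% of its exonic bases lie within exons of Top2b. All 3 clearing enzymes of the Cyp26 family fell, by 1.31, 1.00 and 1.15 for Cyp26a1, Cyp26b1 and Cyp26c1, the last not called without E11.5 replicate 1 (-0.94) or E14.5 replicate 1 (-0.88). The making enzymes Aldh1a1, Aldh1a2, Aldh1a3 and Rdh10 did not pass, nor did Rara, at -0.03. Aldh1a2 moved from -0.15 to -1.61 and was called with the outside-gene share as covariate, and with the 6 compared libraries alone Aldh1a1 (1.03), Aldh1a3 (-0.64) and Rdh10 (0.26) were called.

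Cell division genes were lower without exception in the mitosis list. All 26 tested genes of the G2 and M phases fell, with a median log2 difference of -1.18 and a sum of 7268 to 8053 CPM at E11.5 and 3404 to 3803 CPM at E14.5. Top2a, the topoisomerase that untangles replicated chromosomes, was at 1461, 1386 and 1518 CPM and then at 542, 629 and 547 CPM, 2.54-fold lower. Mad2l1, a spindle checkpoint protein, fell by 1.52 and Bub1, its kinase partner, by 1.47. The kinase Cdk1 and its partners Ccnb1 and Ccnb2 fell by 1.28, 1.20 and 1.10 on the log2 scale. Mki67, the proliferation antigen, was at 866, 831 and 899 CPM and then at 567, 573 and 520 CPM. The falls in the list ran from 0.36 for Kif23 to 1.52 for Mad2l1, and 21 of the 26 were at least 2-fold.

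Of 28 DNA replication genes 27 were lower and none higher, with a median log2 difference of -1.09. Pcna, the polymerase clamp, was at 749, 704 and 797 CPM and then at 244, 295 and 268 CPM, and Gins1, a subunit of the replicative helicase, fell by 1.67. Rrm2, which makes deoxynucleotides, fell by 1.57, and the 6 Mcm helicase genes tested by 0.71 to 1.18. E2f1, a factor that drives this programme, did not pass, at 35.0, 33.6 and 32.3 CPM against 39.0, 39.9 and 37.0 CPM. These values do not overlap, and E2f1 was called at 0.19 (log2) with the 6 compared libraries alone. Fen1 was counted at only 1.63 to 2.78 CPM at E11.5, and 79% of its exonic bases lie within exons of another annotated gene. CDK inhibitors and D cyclins were divided, with 6 of 12 higher and 5 lower, or 4 higher and 0 lower with the outside-gene share as covariate. Cdkn1a, the p21 inhibitor, rose from 14.8, 13.9 and 11.3 CPM to 58.7, 62.6 and 57.0 CPM, and Cdkn1c, the imprinted p57 inhibitor, by 0.92.

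The promoters of the mitosis genes are shown because these genes moved together and share a known sequence, the CCAAT box that the factor NF-Y reads at cell cycle promoters. RefSeq (GRCm38.p6) gave a start for 21 of the 26 genes, and the 250 bases before the start held CCAAT on either strand in 18 of 21 (85.7%). Over 27025 RefSeq genes the share was 34.5%, and it was 60.9% over 23 replication genes and 47.1% over 17 bone genes. No test was made of these shares, and a match is a description of the letters. The motif of the neighbouring cell cycle element, TTTGAA, was held by 8 of 21 mitosis promoters (38.1%) and 16.3% of all, and its variant TTCGAA by 2 of 21 (9.52%) and 1.34% of all. The E2F-type letters GCGGGAA were in 5 of 23 replication promoters (21.7%) and 3.84% of all, and TTTGGCGC in 3 of 23 and 0.437% of all. TATAAA was in 4 of 17 bone promoters (23.5%), in none of the mitosis promoters and in 13% of all. The Runx core ACCACA was in 5 of 17 bone promoters (29.4%) and 14.2% of all, and the longer AACCACA, which contains it, in 3 of 17 and 4.46% of all. All were searched on both strands.

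The windows of Top2a (chr11:99024190-99024439), Ccnb2 (chr9:70421555-70421804), Mki67 (chr7:135716380-135716629) and Cenpf (chr1:189688087-189688336), all on the minus strand, hold 6, 3, 3 and 2 of them, and that of the bone gene Dmp1 (chr5:104197325-104197574, plus strand), shown for contrast, holds 1. None overlaps an annotated exon. Each is printed 5′ to 3′ on the gene's strand, and capitals mark CCAAT, or ATTGG for the other strand.
Top2a: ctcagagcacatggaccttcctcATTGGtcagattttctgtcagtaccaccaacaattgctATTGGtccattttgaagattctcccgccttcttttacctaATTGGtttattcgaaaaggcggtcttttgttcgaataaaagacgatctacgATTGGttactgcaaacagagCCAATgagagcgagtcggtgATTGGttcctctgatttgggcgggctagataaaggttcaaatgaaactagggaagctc
Ccnb2: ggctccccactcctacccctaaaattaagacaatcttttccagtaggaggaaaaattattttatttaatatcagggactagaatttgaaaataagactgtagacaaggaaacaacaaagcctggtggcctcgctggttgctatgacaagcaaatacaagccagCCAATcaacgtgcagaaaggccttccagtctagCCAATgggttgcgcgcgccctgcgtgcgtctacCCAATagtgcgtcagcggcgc
Mki67: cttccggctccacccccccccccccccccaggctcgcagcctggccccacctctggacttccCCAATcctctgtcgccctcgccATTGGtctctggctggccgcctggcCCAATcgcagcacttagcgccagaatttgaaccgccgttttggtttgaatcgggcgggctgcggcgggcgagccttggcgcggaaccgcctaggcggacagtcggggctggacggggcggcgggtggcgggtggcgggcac
Cenpf: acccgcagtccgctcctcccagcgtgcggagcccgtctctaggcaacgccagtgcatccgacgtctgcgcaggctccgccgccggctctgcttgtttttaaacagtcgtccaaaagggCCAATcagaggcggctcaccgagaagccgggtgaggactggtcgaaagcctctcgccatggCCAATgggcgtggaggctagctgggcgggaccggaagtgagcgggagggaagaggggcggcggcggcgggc
Dmp1: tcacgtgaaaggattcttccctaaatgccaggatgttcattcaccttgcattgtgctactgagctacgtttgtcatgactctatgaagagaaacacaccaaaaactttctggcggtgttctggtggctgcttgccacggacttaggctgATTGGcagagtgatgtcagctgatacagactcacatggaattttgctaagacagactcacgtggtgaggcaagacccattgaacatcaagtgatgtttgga

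The embryonic growth genes around Lin28 all fell. The list holds 12 genes, RNA-binding proteins and chromatin factors of early embryonic and tumour cells that include known targets of let-7 microRNAs, and the median log2 difference was -2.33. Hmga2, a chromatin protein of growing embryonic tissue, was at 729, 764 and 700 CPM and then at 133, 131 and 117 CPM. Lin28b, which blocks let-7 processing, was at 20.7, 20.7 and 25.5 CPM and then at 2.36, 3.45 and 2.58 CPM, and its relative Lin28a fell by 4.05. Sall4, a zinc finger factor of pluripotent cells and limb buds, fell by 4.91, Trim71 by 3.20 and Mycn by 2.18 on the log2 scale.

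DNA methylation and Polycomb genes were lower in 12 of 19 and higher in 5. Within Polycomb, paralogs moved in opposite directions. Ezh2, the main histone H3 lysine 27 methyltransferase of dividing cells, was at 204, 196 and 208 CPM and then at 84.9, 88.4 and 85.6 CPM, whereas Ezh1 was at 14.1, 15.1 and 12.6 CPM and then at 27.0, 26.0 and 26.7 CPM. Cbx2 fell by 1.90 and Cbx6 rose by 1.81 and Cbx7 by 1.32 on the log2 scale, the last turning to -0.33 with the outside-gene share as covariate. Uhrf1 and Dnmt1, which copy methylation at replication, fell by 0.96 and 0.70.

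Imprinted genes of fetal growth were mostly higher, in 12 of 18 with 2 lower, and a median log2 difference of 0.88. Plagl1, a zinc finger factor that regulates other imprinted genes, rose from 86.4, 83.7 and 86.8 CPM to 1060, 995 and 994 CPM. The neighbours Dlk1 and Meg3 on chromosome 12 rose by 3.46 and 4.62, although they are expressed from opposite parental chromosomes. H19, a noncoding RNA of chromosome 7, was at 1474, 1377 and 1390 CPM and then at 2760, 2653 and 2771 CPM, and its neighbour Igf2, the fetal growth factor, rose by 2.35. As 63% of the exonic bases of Igf2 lie within exons of the annotated gene Gm49394, its count is uncertain, as is that of Mest, with 23% within Copg2. The largest fall was in Nnat, at 792, 762 and 886 CPM and then at 181, 177 and 170 CPM.

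Further large falls came from other families. The transcripts that lost most CPM were mt-Co1, which fell by 7867 CPM on average, mt-Nd1, Hbb-y and Ptma, and Tmsb10, an actin-binding peptide of migrating cells, fell 7.24-fold. Hemgn, a red cell precursor gene, fell by 4.59 and Mettl11b, which encodes a methyltransferase, by 6.52 on the log2 scale. Of the 12 steepest falls 3 were processed pseudogenes, whose reads can be shared with their parent genes, and the size of each fall rested on 1 library. Gm8210 read 0.392, 24.0 and 0.374 CPM, Gm6166 0.570, 33.1 and 0.544 CPM and Hmgb1-ps7 1.42, 30.2 and 1.56 CPM at E11.5, with E11.5 replicate 2 far above the others for all 3. Without that library Gm8210 and Gm6166 had differences of -1.05 and -0.51 and were not called, and Gm6166 also missed the threshold without any 1 of the E14.5 libraries. Hmgb1-ps7 had a difference of -1.39 without it, in place of -4.27, and was still called. Rn7sk, a small nuclear RNA without a poly-A tail, read 2.10, 2.52 and 11.7 CPM at E11.5, so these 4 values are uncertain.

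When the change took place was described by where the E12.5 mean of log2(CPM + 0.1) lay on the way from the E11.5 mean (0) to the E14.5 mean (1). Genes at least 2-fold different with 5 CPM or more in the higher stage were counted. Of 1834 such genes higher at E14.5, 1188 lay between 0.25 and 0.75, 248 between 0 and 0.25 and 106 below 0, 213 between 0.75 and 1 and 79 above 1, with a median of 0.48. Of 1269 lower genes, 892 lay in the middle and 69 below 0, with a median of 0.43. Groups differed in this description. The median position of called members was 0.08 for suprabasal keratinocyte genes, 0.02 for mast cell genes and 0.23 for bone. It was 0.48 for muscle, 0.53 for cartilage and for the Lin28 list, and 0.67 for the mitosis and the replication genes. Positions of genes that start near 0 depend on the added 0.1 CPM. With 1 CPM added instead, Acan moved from 0.53 to 0.37, Panx3 from 0.42 to 0.22 and Ibsp from 0.06 to 0.02. Medians of the lists are given for 0.1 CPM only. Wnt response genes had a median of 1.12, with Lef1 at 12.8 CPM and Axin2 at 38.5 CPM already at E12.5. Genes whose E12.5 mean was near that of E14.5 included Matn4, a matrilin that read 11.4, 17.7 and 26.9 CPM at E12.5 and 19.8, 16.3 and 24.3 CPM at E14.5. Ehf, an epithelial factor, read 3.99, 26.4 and 17.3 CPM and then 11.2, 13.1 and 16.4 CPM, so its first E12.5 library lay below every E14.5 library.

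**Figure D5:**
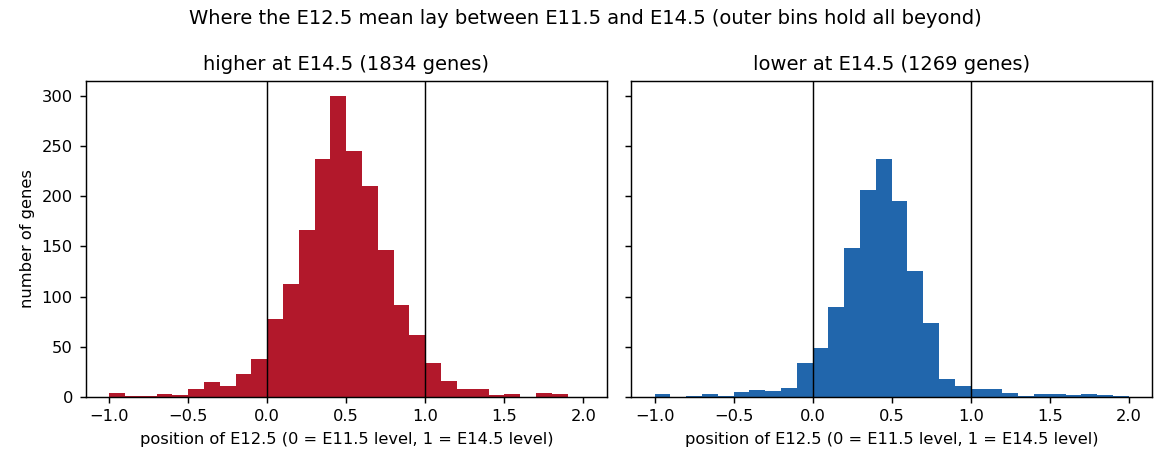
Number of genes by the position of the E12.5 mean between E11.5 (0) and E14.5 (1) on the log2(CPM + 0.1) scale, for the 1834 genes at least 2-fold higher (left) and the 1269 at least 2-fold lower (right) with 5 CPM or more in the higher stage. Both distributions have their highest bar from 0.4 to 0.5, with tails below 0 and above 1 for genes whose E12.5 mean lay outside the range of the 2 stages.

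One alternative lowered many of these counts. With each library's share of alignments outside genes added to the fit beside the stage means, 1785 of 18365 genes were higher (9.72%) and 1661 lower (9.04%). The counts then were 8 of 21 for cartilage, 22 of 36 for matrix, 11 of 23 for suprabasal keratinocytes, 6 of 13 for osteoclasts, 7 of 22 for endothelium and 1 of 9 for mast cells among rises. They were 7 of 18 for imprinted genes, 6 of 23 for basal epithelium, 5 of 22 for follicles and teeth, 7 of 16 for connective tissue, 7 of 11 for pericytes and smooth muscle, 5 of 7 for melanocytes, 5 of 12 for Schwann cells and 1 of 22 for neurons. Among falls they were 16 of 28 for replication, 11 of 29 for jaw factors, 6 of 26 for secreted signals, 2 of 20 for Wnt response genes, 7 of 15 for retinoic acid genes and 7 of 19 for chromatin genes. Bone went from 19 to 16 of 23, muscle from 28 to 22 of 29, leukocytes from 17 to 14 of 19 and mitosis from 26 to 19 of 26, and the Lin28 list stayed at 12 of 12. The differences themselves moved less than the counts in several lists, with medians of 2.86 for cartilage (3.73 as reported), 5.19 for suprabasal genes (5.10), 3.79 for mast cells (5.41) and 0.74 for endothelium (1.35). Single genes that lost their call had differences of 8.55 for Cma1 (10.25 as reported), 7.08 for Acan (9.96) and 5.25 for Ambn (4.18), but of 0.02 for Ehf (5.85). That share does not overlap between E11.5 and E14.5, so it and stage are told apart only by the spread within stages. This spread was widest by far among the E10.5 libraries, which are outside the comparison and read 2.67%, 1.92% and 4.88%. Its SD was 0.132 for E11.5 libraries, 0.202 for E12.5 libraries and 0.222 for E14.5 libraries. Every value given with this covariate therefore rests largely on E10.5. Whether the same adjustment holds within the compared stages was not tested.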

How the data were processed

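RNA was extracted with Trizol, selected by poly-T beads and made into libraries with a NEBNext Ultra RNA kit, as the labels' protocols state. They do not say whether strand was kept, and the kit named is known as a non-directional one. STAR 2.7.3a, HTSeq 0.12.4, FastQC and the mm10 build are named in the submitters' processing notes, with annotation release and strand setting not given in the sources used here. Raw read counts per Ensembl gene were deposited by the authors for each library, and summary entries that name no gene (14.8% to 17.3% of listed alignments in the compared libraries) were left out. Symbols and coordinates came from GENCODE M21, which matched 53706 of 53801 identifiers, and promoters from RefSeq.

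Counts of all 12 libraries were fitted in edgeR 4.0.16 (R 4.3.3) with 1 mean per stage, TMM scaling, a minimum count of 10 and the quasi-likelihood test of E14.5 against E11.5, with Benjamini-Hochberg adjustment over all tested genes and a threshold of 0.05. Using all stages let them share 1 estimate of the spread. Log2 differences, their SE and all adjusted p-values come from that fit. It was tried on simulated counts with 200 of 18365 genes changed. Recovery among changed genes that entered the test was 37.3% for 1.5-fold changes, 59.1% for 2-fold changes and 87.3% for 4-fold changes. False calls made up 6.30% of the 127 simulated calls. Far fewer genes were changed there than the 12841 called here, so scaling and error control with most genes differing were not tested. A gene without a count at 1 stage is given as a bound against 3 counts over that stage, and one with 1 to 3 counts as a ratio with a 95% counting interval, which covers counting error only. Gene lists and their members were chosen with earlier results of these data known, and no list was given a test. Genes are named by size of change (12 per direction), gain or loss in CPM (10 each), list membership (up to 6 per direction) and timing, and a few list members are not reported here. Alternatives were DESeq2 1.42.0, limma-voom 3.58.1, other filters, scalings and samples, a 2-fold null, the replicate number as a block and a covariate for alignments outside genes.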

Additional observations from a re-analysis of the deposited data

Results flagged for a closer look

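The share of alignments that fell outside annotated genes, which no comparison of genes uses, was at least 5.776% in the E14.5 libraries and at most 2.42% in the E11.5 libraries. At E12.5 it was 5.03% to 5.43%. It is given as a value because it separates the compared stages without overlap, and its part in the results was not tested beyond the fit that holds it as a covariate.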

How the results depend on the processing

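Between them, DESeq2 (6674 higher, 6006 lower), limma-voom (6810, 6001), the 6 compared libraries alone (7112, 6501), no filter (7414, 6133) and a minimum count of 50 (5537, 5209) stayed within 1.5 times of the reported counts. Leaving out 1 library at a time gave 6287 to 6521 higher and 5607 to 5749 lower. Replicate numbers did not pair the samples (correlations of deviations of 0.017, -0.079 and -0.041), and the fit with the replicate block gave 6842 higher and 6014 lower. Tested against a 2-fold change, 3044 genes were higher and 869 lower, or 77.8% of calls higher beside 53.2% as reported. By that test fewer list members were called, namely 10 mitosis, 8 replication, 10 jaw, 4 retinoic, 5 secreted signal, 4 Wnt response and 3 chromatin genes among falls, and 11 endothelial, 7 imprinted, 7 basal epithelial, 3 palate and 3 neuronal genes among rises. With the share outside genes as a covariate, an adjustment that rests largely on the spread among E10.5 libraries, 1785 genes were higher and 1661 lower. Rises were then called in 8 cartilage, 22 matrix, 11 suprabasal, 6 osteoclast, 7 endothelial, 7 imprinted, 6 basal epithelial, 5 follicle and tooth, 1 mast cell, 7 connective tissue and 1 neuronal gene, and falls in 16 replication, 11 jaw, 6 secreted signal, 2 Wnt response and 7 chromatin genes. In that fit 4 named genes changed sign, with log2 differences of 0.0027 for Pax3, -0.20 for Gli1, -0.33 for Cbx7 and 0.088 for Coro1a, 70 of 221 named genes were no longer called, and 3 became called (Aldh1a2, Foxf2 and Gata2). With the 6 compared libraries alone 10 named genes became called. The cause was not tested. The minimum count of 50 left 4 melanocyte genes called, where fewer were tested, and no filter gave 11 neuronal genes higher.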
